A study of Arabidopsis thaliana with 24 samples.

Results

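Wild-type seedlings of Arabidopsis thaliana, accession Columbia (Col), were compared after 12 h at 27 °C and after 12 h at 21 °C, with 3 RNA-seq libraries at each temperature. The comparison is defined by genotype and time in the labels, and takes 6 of the 24 libraries of the series. It was chosen with earlier results of these data known. Seedlings were 7 days old, had grown at 21 °C in short days and were harvested whole, so that shoot and root RNA were mixed. The labels give no hour of harvest. At 12 h the series also holds the mutant ino80-5, written ino80, at 27 °C and 21 °C with 3 libraries each, and a separate table holds Col after 1 h at 27 °C and at 21 °C, also with 3 libraries each. INO80 is the motor subunit of a complex that moves and exchanges nucleosomes, and the study asks about its part in the response to warmth.

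Mild warmth, below the range that damages proteins, makes Arabidopsis seedlings elongate their hypocotyls and leaf stalks, a growth form called thermomorphogenesis. In the model from earlier work the photoreceptor phytochrome B and the evening complex of the circadian clock, which contains ELF3, ELF4 and LUX, hold down the transcription factor PIF4 in the cool. PIF4 in turn activates auxin synthesis genes and small growth proteins of the SAUR family. Warm plants are also known to accumulate less anthocyanin and to show weaker cold acclimation.

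The 12 h table held 23282 genes in TPM, transcript abundance relative to the library total and corrected for transcript length, and 19578 genes reached 1 TPM in at least 3 of its 12 libraries. TPM values keep no read depth, so no counting error could be attached to them. Pairs of replicates had Pearson correlations over log2 values of r = 0.988 to 0.991 across genes at 27 °C and at 0.992 to 0.993 at 21 °C. On the first principal component, with 57.7% of the variance, the Col libraries lay at 28.1 to 36.0 at 27 °C and at -49.5 to -45.0 at 21 °C, and no library left its group. The green-tissue marker RBCS1A, the Rubisco small subunit, was among the most abundant transcripts with 18802 to 21231 TPM at 27 °C and 29533 to 32061 TPM at 21 °C. INO80 itself had 37.0, 45.5 and 47.9 TPM at 27 °C and 22.5, 20.0 and 22.3 TPM at 21 °C, a rise of 0.97 ± 0.12 on the log2 scale in Col. In ino80 the same gene had 32.1, 22.8 and 31.2 TPM at 27 °C and 17.5, 16.4 and 16.6 TPM at 21 °C, so its RNA was lower in the mutant at both temperatures but still present.

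Warmth changed the RNA level of most measured genes in Col after 12 h, mostly by small amounts. All changes below are log2 fold changes of TPM + 1, at 27 °C relative to 21 °C, with the standard error, from limma with n = 3 libraries per group, and a gene is said to rise or fall where its adjusted p was under 0.05. Of the 19578 genes, 11475 changed (58.6%), of which 7201 rose (36.8%) and 4274 fell (21.8%). A change of at least 1 log2 unit was reached by 1572 genes (8.03%), 1028 of them higher (5.25%) and 544 lower (2.78%), and the first of these counts was 877 with a pseudocount of 5. In 39.7% of tested genes all 3 warm libraries lay above all 3 cool ones, and in 24.2% all 3 lay below. The median change over all tested genes was 0.13, with the 10th percentile at -0.58 and the 90th at 0.78. When libraries were rescaled by the median of ratios, the median change was 0.02 and the split was 5616 higher and 5550 lower. List medians below are therefore to be read against 0.13, and list counts against 36.8% higher and 21.8% lower. No label ties the 3 libraries of a group to separate plantings or cultures, so p-values measure the spread between these samples, which may be technical.

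The 12 largest rises included the dark- and starvation-induced genes SEN1 and ASN1, the tyrosine-breakdown gene HGO and the clock gene LUX, beside 8 genes of other or unknown function. SEN1, a gene known from dark-induced senescence, had 687, 766 and 931 TPM at 27 °C and 28.3, 21.3 and 35.3 TPM at 21 °C, and all 3 warm libraries were far above all 3 cool ones, with a change of 4.78 ± 0.15 (limma adjusted p = 6.75e-11). AT2G15880, which encodes a leucine-rich repeat protein, had 105, 112 and 178 TPM at 27 °C and 2.96, 3.02 and 5.71 TPM at 21 °C, a change of 4.76 ± 0.21 (limma adjusted p = 3.85e-10). ASN1, the asparagine synthetase induced in darkness and starvation, had 113, 137 and 196 TPM at 27 °C and 5.28, 4.53 and 7.80 TPM at 21 °C, a change of 4.44 ± 0.19 (limma adjusted p = 2.61e-10). Lack of overlap between temperatures was a condition for the 12 largest rises, so it adds no support for these genes. FLP1, which encodes a protein like the flowering promoter FPF1, rose by 3.87 ± 0.24, and RTFL21, a gene of the small ROTUNDIFOLIA-like family, rose by 3.45 ± 0.17. The other largest rises among genes with a mean of at least 5 TPM were TPX2, here a thioredoxin-dependent peroxidase (3.36 ± 0.14), AT4G27450, annotated as an aluminium-induced protein (3.12 ± 0.11), the tyrosine-breakdown enzyme HGO (3.04 ± 0.12), the zinc finger gene AT5G44260 (3.03 ± 0.18), AT1G22890 (2.96 ± 0.12), the clock gene LUX (2.96 ± 0.11) and AT1G33055 (2.82 ± 0.18). TPX2, HGO, LUX and AT1G33055 each overlap another annotated gene by 200 bp or more.

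The 12 largest falls included the cold-protection genes COR15A and COR15B, the antenna gene CAB2 and genes of the flavonoid pathway. COR15A, which encodes a chloroplast protein that protects membranes in freezing, had 0.716, 0.435 and 0.783 TPM at 27 °C and 53.6, 70.4 and 65.3 TPM at 21 °C, a change of -5.28 ± 0.26 (limma adjusted p = 8.66e-10). CAB2, a chlorophyll a/b-binding protein of the photosystem II antenna, had 20.7, 19.5 and 20.4 TPM at 27 °C and 571, 702 and 482 TPM at 21 °C, a change of -4.77 ± 0.18 (limma adjusted p = 1.12e-10). In both genes the highest warm library was far below the lowest cool one. Lack of overlap was a condition for the 12 largest falls as well. TT19, the glutathione transferase that carries anthocyanins towards the vacuole, had 0.815, 0.377 and 0.0989 TPM at 27 °C and 21.8, 38.6 and 42.0 TPM at 21 °C, a change of -4.60 ± 0.34 (limma adjusted p = 3.28e-08). The next largest falls were those of LDOX (-4.19 ± 0.27), COR15B (-4.16 ± 0.22), DFR (-4.13 ± 0.29), 5MAT (-3.22 ± 0.21), UF3GT (-3.14 ± 0.27), FLS1 (-3.11 ± 0.19), AT3G61920 (-3.04 ± 0.29), TT4 (-3.04 ± 0.21) and AT1G53541 (-2.96 ± 0.31). Of the 12 largest falls, 7 are flavonoid pathway genes: TT19, LDOX, DFR, 5MAT, UF3GT, FLS1 and TT4.

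**Figure D1:**
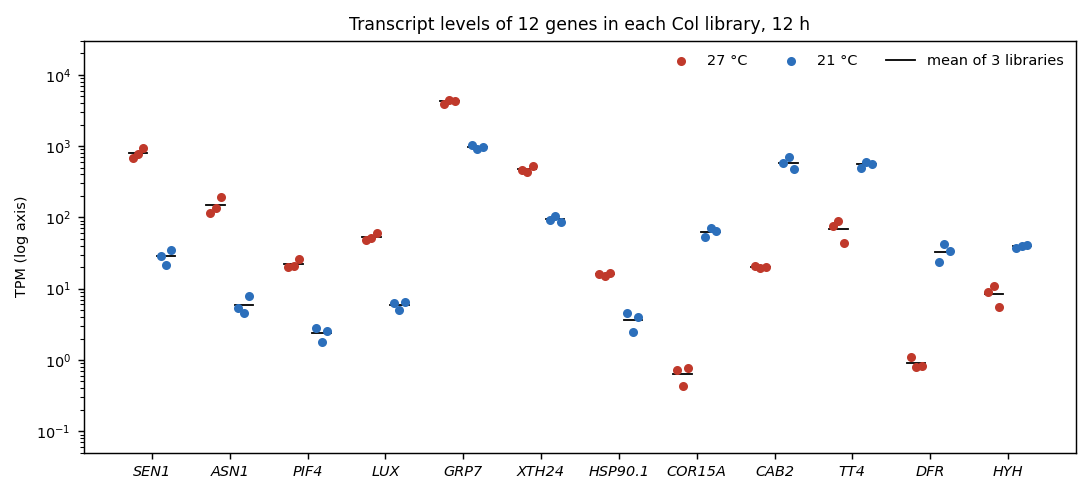
Transcript levels in TPM (log axis) of 12 genes in each of the 3 Col libraries at 27 °C (red) and the 3 at 21 °C (blue) after 12 h, with the mean of each group as a line. For the genes from SEN1 to HSP90.1 every warm library lies above every cool one, and for the genes from COR15A to HYH every warm library lies below.

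Most growth regulators of the PIF and shade pathway rose. Of 19 tested members, 14 rose and 1 fell, against 36.8% and 21.8% of all genes, and their median change was 0.73. PIF4, the transcription factor at the centre of thermomorphogenesis, had 20.3, 20.7 and 25.9 TPM at 27 °C and 2.78, 1.78 and 2.55 TPM at 21 °C, a change of 2.79 ± 0.14 (limma adjusted p = 1.19e-09). PIF5, its close relative, had 26.6, 26.0 and 30.5 TPM at 27 °C and 8.93, 8.16 and 8.67 TPM at 21 °C, a change of 1.58 ± 0.10 (limma adjusted p = 9.24e-09). All warm libraries of both genes were above all cool ones. PIF3 rose by 1.01 ± 0.09 and PIF1 by 0.62 ± 0.07, while PIF7, a further regulator of the shade and warmth responses, had 8.63, 6.35 and 7.64 TPM at 27 °C and 8.72, 10.7 and 8.87 TPM at 21 °C and was not called (-0.29 ± 0.14, limma adjusted p = 0.0816). It was called lower without the first warm library, with a pseudocount of 5 and with both other scalings (adjusted p 0.0262 to 0.298 over all settings).

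Among the genes downstream of or opposing the PIFs, PAR1 and HFR1, which encode non-DNA-binding inhibitors of PIF proteins, rose by 1.54 ± 0.14 and 1.44 ± 0.16. PRE1, which frees growth factors from such inhibition, had 4.07, 4.44 and 3.93 TPM at 27 °C and 0.452, 1.23 and 0.658 TPM at 21 °C and rose by 1.55 ± 0.23. HB-2, a homeodomain factor of the shade response (ATHB2), rose by 1.15 ± 0.10, and LNG2, which promotes lengthwise cell growth, rose by 1.31 ± 0.10. The only member that fell was KDR, an HLH gene of the PRE type, at -0.34 ± 0.11, and its call was lost without the second warm library (adjusted p 0.00335 to 0.0522 over all settings). With median-of-ratios scaling the list had 12 members higher and 2 lower.

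The auxin list moved unevenly. Of 28 tested genes 10 rose and 3 fell, against 36.8% and 21.8% of all genes. Their median was 0.11, close to that of all genes. With median-of-ratios scaling 9 rose and 9 fell, so no direction of the list as a whole held across scalings. YUC9, an enzyme of auxin synthesis, had 6.77, 6.92 and 5.92 TPM at 27 °C and 1.05, 0.839 and 1.35 TPM at 21 °C and rose by 1.86 ± 0.19. YUC8, the synthesis gene usually tied to PIF4, had 2.21, 2.71 and 2.27 TPM at 27 °C and 1.55, 1.50 and 2.13 TPM at 21 °C and was not called (0.32 ± 0.14, limma adjusted p = 0.0652), except without the third cool library (adjusted p 0.0303 to 0.191 over all settings). IAA29, an auxin-response repressor and known PIF4 target, rose by 1.50 ± 0.19 with 10.5, 11.1 and 8.23 TPM at 27 °C and 2.26, 2.87 and 3.49 TPM at 21 °C, and its temperatures did not overlap. IAA19, a related gene of hypocotyl growth, had 3.33, 3.88 and 2.84 TPM at 27 °C and 2.16, 2.80 and 2.38 TPM at 21 °C and was not called (0.33 ± 0.18, limma adjusted p = 0.133). GH3.5, which conjugates auxin to amino acids, rose by 1.13 ± 0.09, the receptor gene TIR1 rose by 0.70 ± 0.07, and CYP79B2, which feeds the indole branch of auxin and glucosinolate synthesis, fell by 0.75 ± 0.16.

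The small SAUR genes, which promote cell expansion by activating the plasma membrane proton pump, rose in part. Of 11 tested members 6 rose and none fell, against 36.8% and 21.8% of all genes, 5 were not called, and their median change was 0.87. The 6 that rose are SAUR19 to SAUR24, at 2.04 ± 0.21 for SAUR19, 1.28 ± 0.26 for SAUR20, 1.18 ± 0.21 for SAUR21, 1.47 ± 0.28 for SAUR22, 1.58 ± 0.26 for SAUR23 and 0.87 ± 0.23 for SAUR24. SAUR19 had 6.59, 5.01 and 4.67 TPM at 27 °C and 0.681, 0.892 and 0.177 TPM at 21 °C. These genes are near-identical copies in one cluster, so reads may be split among them. The 5 members outside that cluster were not called, with changes between -0.43 for SAUR62 and 0.54 for SAUR9.

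Of 11 brassinosteroid genes 6 rose and none fell, against 36.8% and 21.8% of all genes, with a median of 0.19 near the 0.13 of all genes, and with median-of-ratios scaling 4 rose and 1 fell. CPD, a synthesis enzyme, had 211, 218 and 249 TPM at 27 °C and 82.2, 82.8 and 84.5 TPM at 21 °C and rose by 1.43 ± 0.06. The receptor gene BRI1 rose by 0.47 ± 0.08, the transcription factor gene BZR1 by 0.82 ± 0.08 and the inhibitory kinase gene BIN2 by 0.66 ± 0.06, a positive and a negative regulator of the pathway. BES1 overlaps another gene and its rise of 0.19 ± 0.05 was not called with median-of-ratios scaling (adjusted p 0.00633 to 0.425 over all settings).

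Of 15 gibberellin genes 8 rose and 3 fell, against 36.8% and 21.8% of all genes, with a median of 0.28. GA3OX1, the enzyme that makes the active hormone, fell by 2.09 ± 0.16 and had 4.61, 5.17 and 2.52 TPM at 27 °C and 21.4, 18.8 and 20.2 TPM at 21 °C. The receptor genes GID1C and GID1B rose by 0.77 ± 0.09 and 0.52 ± 0.10, and the DELLA repressor genes RGL3, GAI and RGA1 rose by 0.86 ± 0.15, 0.72 ± 0.08 and 0.38 ± 0.06. GASA6, a gibberellin-responsive small peptide gene, had 596, 508 and 453 TPM at 27 °C and 258, 234 and 229 TPM at 21 °C and rose by 1.10 ± 0.09. Of 10 cytokinin genes none rose and 5 fell, against the same shares of all genes, with a median of -0.26. ARR7, a rapid cytokinin-response gene, had 13.5, 20.0 and 11.8 TPM at 27 °C and 44.3, 45.6 and 46.1 TPM at 21 °C and fell by 1.56 ± 0.15, with no overlap between temperatures.

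Most XTH genes rose, while alpha-expansin genes went both ways. Of 23 tested expansin, XTH and cellulose synthase genes 14 rose and 5 fell, against 36.8% and 21.8% of all genes, with a median of 0.35, and with median-of-ratios scaling 10 rose and 6 fell. Every gene that fell was an alpha-expansin, a protein that loosens walls, with EXPA5 at -1.12 ± 0.13, EXPA10 at -1.07 ± 0.14 and EXPA1 at -0.78 ± 0.09. Of the same family EXPA8 rose by 1.01 ± 0.09 with 57.8, 46.7 and 49.5 TPM at 27 °C and 24.8, 25.7 and 24.3 TPM at 21 °C. The xyloglucan-remodelling enzyme gene XTH24 had 468, 439 and 529 TPM at 27 °C and 92.3, 104 and 85.0 TPM at 21 °C and rose by 2.34 ± 0.09 (limma adjusted p = 2e-10). Of the other XTH genes, TCH4, XTH15, XTH30, XTH17, XTH19, XTH18 and XTH4 rose by 0.56 to 1.67, and XTH33 was not called (0.47 ± 0.23, limma adjusted p = 0.0934, with 0.0261 to 0.385 over all settings). The call of XTH17 was lost without the third cool or the second warm library (adjusted p 0.00323 to 0.0745 over all settings). The cellulose synthase genes CESA1, CESA3 and CESA6 rose by 0.18 to 0.36, and the calls of CESA1 and CESA6 were lost in 7 and 5 settings (adjusted p 0.0204 to 0.492 and 0.00349 to 0.184 over all settings).

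**Figure D2:**
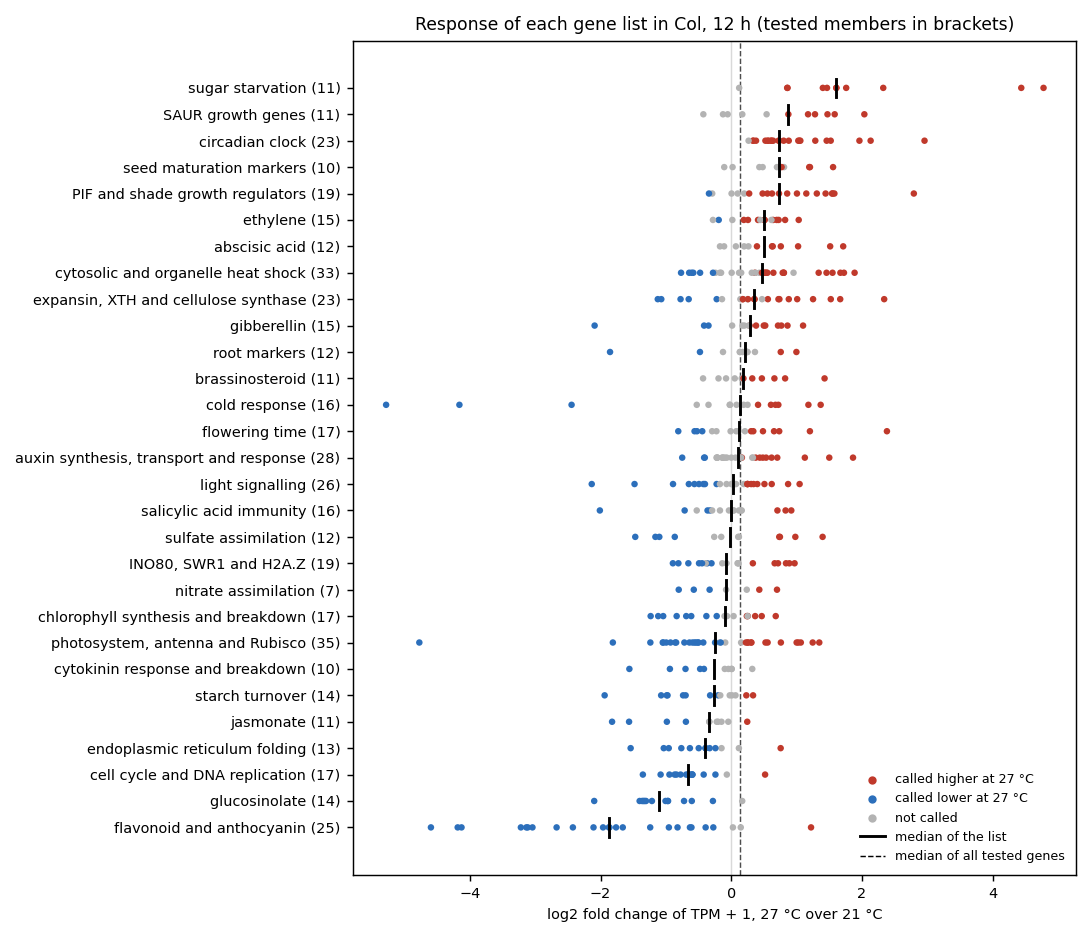
Log2 fold change of TPM + 1 at 27 °C over 21 °C in Col after 12 h for each tested member of the gene lists (points: red called higher, blue called lower, grey not called), with the list's median as a bar and the median of all tested genes, 0.13, as a dashed line. Sugar starvation (median 1.61), SAUR, clock and PIF lists have medians to the right of the line, and flavonoid (median -1.86), glucosinolate and cell cycle lists have medians to its left.

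The circadian clock genes that could be tested nearly all rose. Of 30 entries 23 were tested, and 22 of them rose, none fell and only LNK2 was not called (0.27 ± 0.17, limma adjusted p = 0.201), against 36.8% of all genes called higher. The median was 0.74, and 19 rose with median-of-ratios scaling. LUX, the DNA-binding part of the evening complex, had 48.7, 50.9 and 59.7 TPM at 27 °C and 6.27, 5.04 and 6.61 TPM at 21 °C, a change of 2.96 ± 0.11 (limma adjusted p = 1.02e-10). GRP7, a clock-controlled RNA-binding protein that peaks in the evening, had 3920.0, 4497 and 4304 TPM at 27 °C and 1019, 905 and 972 TPM at 21 °C, a change of 2.13 ± 0.06 (limma adjusted p = 4.11e-11). TOC1, the evening repressor of the morning genes, had 139, 153 and 173 TPM at 27 °C and 54.2, 53.0 and 59.3 TPM at 21 °C, a change of 1.46 ± 0.09 (limma adjusted p = 6.03e-09). In each of the 3 genes the warm libraries lay far above the cool ones.

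The other evening complex genes rose less, with ELF4 at 0.64 ± 0.06 and ELF3 at 0.57 ± 0.09. BOA, a LUX homologue, rose by 1.29 ± 0.09. RVE7, a MYB factor of the CCA1 family, had 4.73, 5.99 and 5.28 TPM at 27 °C and 0.577, 0.372 and 0.969 TPM at 21 °C and rose by 1.96 ± 0.16, and CDF2, a repressor of flowering, had 5.003, 5.17 and 6.64 TPM at 27 °C and 1.14, 1.23 and 1.50 TPM at 21 °C and rose by 1.52 ± 0.13. GI, which acts in the clock and in flowering, was low with 1.79, 1.83 and 1.80 TPM at 27 °C and 0.232, 0.430 and 0.390 TPM at 21 °C and rose by 1.06 ± 0.14. PRR5 rose by 0.38 ± 0.13, a call that was lost with median-of-ratios scaling, with quantile normalization and without either of 2 single libraries, the second one at 21 °C and the third one at 27 °C (adjusted p 0.00295 to 0.1 over all settings). The 7 members that missed the filter include the morning genes, with CCA1 at 0.136, 0.212 and 0.371 TPM at 27 °C and 0.519, 0.306 and 0.337 TPM at 21 °C and LHY at 0.601, 0.443 and 0.274 TPM at 27 °C and 0.741, 0.827 and 0.696 TPM at 21 °C. Clock gene levels depend on the hour of harvest, which the labels do not state.

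The evening element, AAAATATCT, is a short DNA word found before many evening-expressed genes. It was searched on both strands in the 250 bases before each annotated start in RefSeq's TAIR10.1 assembly. It was present before 8 of the 23 tested clock genes (34.8%), namely BOA, FKF1, GRP7, GRP8, LUX, PRR5, RVE7 and TOC1, and before 2.51% of all 19483 tested genes with a window. Among all genes that rose the share was 2.42%, and among those that fell 2.88%. Windows of the 4 clock genes with the element among those given with full values above read as follows, 5′ to 3′ on the gene's strand, with the element or its reverse complement in capitals. The LUX window is chr3:17182922-17183041 on the plus strand, GRP7 is chr2:9266558-9266677 on the minus strand, RVE7 is chr1:6308244-6308363 on the minus strand, and TOC1 is chr5:24674763-24674962 on the plus strand.
LUX: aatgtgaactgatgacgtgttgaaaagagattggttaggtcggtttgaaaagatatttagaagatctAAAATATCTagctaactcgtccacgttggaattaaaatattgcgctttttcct
GRP7: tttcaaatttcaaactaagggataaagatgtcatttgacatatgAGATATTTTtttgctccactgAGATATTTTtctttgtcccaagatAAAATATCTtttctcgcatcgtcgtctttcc
RVE7: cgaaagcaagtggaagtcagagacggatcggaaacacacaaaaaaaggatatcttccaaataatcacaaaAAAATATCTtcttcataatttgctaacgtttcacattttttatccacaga
TOC1: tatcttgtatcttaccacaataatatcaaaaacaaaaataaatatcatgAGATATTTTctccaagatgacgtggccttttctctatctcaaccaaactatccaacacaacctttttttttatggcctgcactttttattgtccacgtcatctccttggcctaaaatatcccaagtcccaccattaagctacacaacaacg
GRP7 has 3 copies, at 76, 55 and 31 bases before the start, LUX has 1 at 53 bases, RVE7 has 1 at 50 bases and TOC1 has 1 at 151 bases. A match is a string of letters and was not tested for binding.

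Light-signalling genes moved both ways. Of 26 tested 10 rose and 9 fell, against 36.8% and 21.8% of all genes, with a median of 0.03. With median-of-ratios scaling 7 rose and 10 fell. HYH, a bZIP factor of the light response, had 8.97, 10.8 and 5.54 TPM at 27 °C and 37.5, 39.6 and 40.8 TPM at 21 °C and fell by 2.13 ± 0.15. Its homologue HY5, which opposes PIF4 on shared promoters, fell by 0.43 ± 0.08, and HMR, needed for phytochrome signalling and chloroplast transcription, fell by 1.48 ± 0.09 with 40.1, 41.5 and 43.5 TPM at 27 °C and 112, 115 and 128 TPM at 21 °C. The photoreceptor genes PHYA and UVR8 rose by 1.05 ± 0.09 and 0.87 ± 0.07, whereas PHYB, a thermosensor, was not called (0.01 ± 0.08, limma adjusted p = 0.954).

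Photosynthesis genes split within single complexes. Of 35 tested photosystem, antenna and Rubisco genes 13 rose and 19 fell, against 36.8% and 21.8% of all genes. The share that rose was near that of all genes. Their median was -0.25, and with median-of-ratios scaling 8 rose and 20 fell. The fall was steep in CAB2 and marked in CAB3, which had 1233, 1003 and 1159 TPM at 27 °C and 4332, 4342 and 3305 TPM at 21 °C and fell by 1.81 ± 0.10. Other genes for the same type of antenna protein went the other way, with LHB1B2 at 7752, 7729 and 8766 TPM at 27 °C and 3838, 3459 and 2959 TPM at 21 °C and a rise of 1.25 ± 0.11, LHB1B1 at 1.03 ± 0.11 and LHCB2.2 at 1.35 ± 0.10. CAB1, CAB2 and CAB3 are near-identical copies, as are the pairs LHB1B1 and LHB1B2 and LHCB2.1 and LHCB2.2, so the division among copies is uncertain. The Rubisco small subunit genes all fell, with RBCS1B at -1.24 ± 0.08, RBCS2B at -0.72 ± 0.09, RBCS1A at -0.64 ± 0.08 and RBCS3B at -0.59 ± 0.09, and the call of RBCS1A was lost with quantile normalization (adjusted p 1.97e-07 to 0.349 over all settings). Photosystem I antenna genes split as well, since LHCA1 to LHCA4 rose by 0.26 to 0.76 while LHCA5 and LHCA6 fell by 0.86 ± 0.07 and 0.99 ± 0.07. The call of LHCA2 was lost with median-of-ratios scaling (adjusted p 0.000434 to 0.198 over all settings).

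Of 17 chlorophyll genes 5 rose and 8 fell, against 36.8% and 21.8% of all genes, with a median of -0.10. Of the 8 falls 7 were in synthesis, with PCB2 at -1.23 ± 0.06, the magnesium chelatase subunit gene CHLI1 at -1.12 ± 0.05 and PORC at -1.04 ± 0.07. CHLI1 had 343, 319.8 and 323 TPM at 27 °C and 701, 701 and 739 TPM at 21 °C. The breakdown genes went both ways. PPH and PAO rose by 0.68 ± 0.07 and 0.47 ± 0.09. NYE1 rose by 0.24 ± 0.09, a call lost with both other scalings and without any of 4 single libraries (adjusted p 0.00836 to 0.411 over all settings). NYC1 fell by 0.22 ± 0.08, a call lost without any of 3 single libraries (adjusted p 0.00154 to 0.102 over all settings), and SGR2 was not called (0.25 ± 0.23, limma adjusted p = 0.361).

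**Figure D3:**
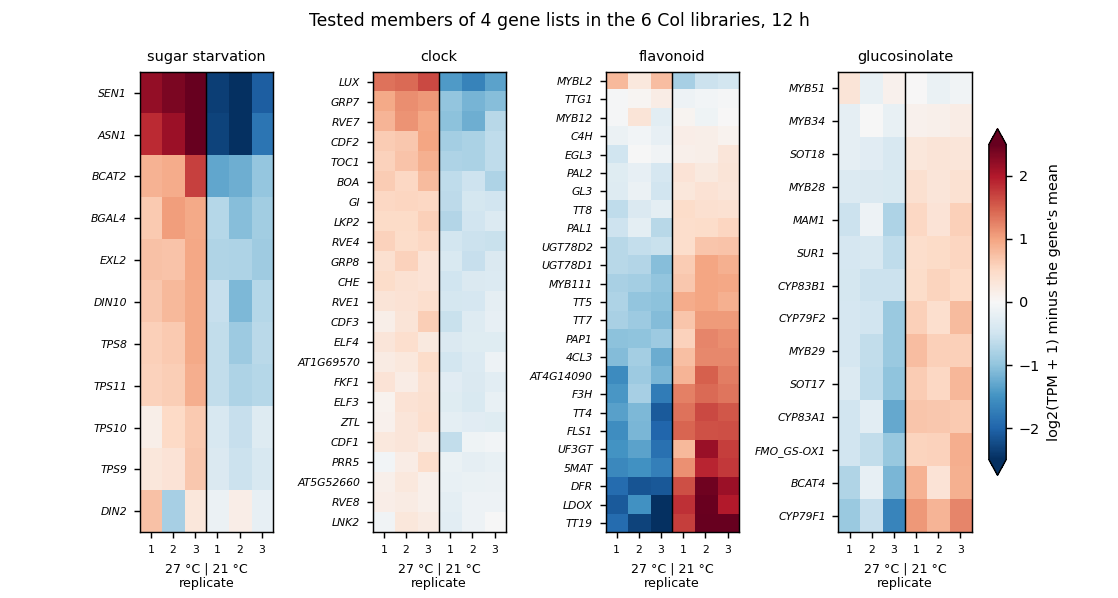
Log2(TPM + 1) minus the gene's mean over the 6 Col libraries at 12 h (colour scale) for the tested members of the sugar starvation, clock, flavonoid and glucosinolate lists, with the 3 libraries at 27 °C left of the 3 at 21 °C. Sugar starvation and clock genes are redder in the warm libraries, whereas flavonoid genes other than MYBL2, TTG1 and MYB12 and glucosinolate genes other than MYB51 are bluer there.

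The tested flavonoid pathway genes nearly all fell. Of 25 tested genes 22 fell and 1 rose, against 21.8% and 36.8% of all genes, with a median of -1.86, and 16 fell by at least 1 log2 unit. TT4, chalcone synthase at the entry of the pathway, had 74.5, 87.9 and 43.8 TPM at 27 °C and 491, 604 and 564 TPM at 21 °C, a change of -3.04 ± 0.21 (limma adjusted p = 1.92e-08). DFR, the first enzyme of the anthocyanin branch, had 1.10, 0.787 and 0.826 TPM at 27 °C and 23.4, 41.8 and 34.1 TPM at 21 °C, a change of -4.13 ± 0.29 (limma adjusted p = 2.38e-08). LDOX, the next enzyme, had 0.988, 1.98 and 0.332 TPM at 27 °C and 29.2, 45.9 and 32.6 TPM at 21 °C, a change of -4.19 ± 0.27 (limma adjusted p = 1.02e-08). All 3 genes are among the largest falls, for which lack of overlap between temperatures was a condition.

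Falls were smaller towards the general phenylpropanoid enzymes, with F3H at -2.67 ± 0.23, TT5 at -1.86 ± 0.08, PAL1 at -0.95 ± 0.11, PAL2 at -0.61 ± 0.07 and C4H at -0.27 ± 0.05. The MYB activator gene PAP1 had 0.195, 0.203 and 0.284 TPM at 27 °C and 2.60, 4.61 and 4.38 TPM at 21 °C and fell by 1.96 ± 0.24, MYB111, an activator of flavonol genes, fell by 1.76 ± 0.14, and the bHLH partner gene TT8 fell by 0.82 ± 0.17. MYBL2, a repressor of anthocyanin synthesis, had 15.8, 10.5 and 15.4 TPM at 27 °C and 4.37, 5.64 and 5.98 TPM at 21 °C and was the gene that rose, by 1.22 ± 0.16. MYB12 and TTG1 were not called. The G-box CACGTG, a DNA word bound by bHLH and bZIP factors, lay in the 250-base window of 5 of the 25 genes (20.0%), against 7.48% of all windows, 8.18% of those of rising genes and 7.54% of those of falling genes. MYB12, which was not called, is 1 of the 5. Across the other lists the share ranged from 0.0% (SAUR genes) to 60.0% (seed maturation markers). It was 25.0% in the abscisic acid list, where no gene fell.

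Cold-response genes moved in both directions. Of 16 tested 6 rose and 3 fell, near the 36.8% and 21.8% of all genes. Their median of 0.13 was also that of all genes. The 3 that fell were COR15A, COR15B, which had 0.735, 0.638 and 0.937 TPM at 27 °C and 26.2, 36.6 and 29.8 TPM at 21 °C, and KIN1, a small hydrophilic protein gene with 1.52, 2.43 and 2.67 TPM at 27 °C and 14.7, 16.5 and 17.7 TPM at 21 °C and a change of -2.44 ± 0.58 (limma adjusted p = 0.00234). COR413IM1, another chloroplast membrane protein of cold acclimation, went the other way with 83.7, 93.8 and 87.8 TPM at 27 °C and 29.9, 37.1 and 34.2 TPM at 21 °C and rose by 1.37 ± 0.13, and RD29B rose by 1.18 ± 0.12. RD29A, KIN2, LTI30 and ERD10, also COR-type genes, were not called, with changes of -0.53 to 0.19. The activators CBF1, CBF2 and CBF3 stayed under 1 TPM in all 6 Col libraries and were not tested. COR15A and COR15B are similar neighbouring genes, and COR15B overlaps another annotation. The window before COR15A is shown because its fall was the largest of all genes, and holds a G-box (capitals) 28 bases before the start, at chr2:17712331-17712450 on the minus strand of TAIR10.1 (RefSeq).
COR15A: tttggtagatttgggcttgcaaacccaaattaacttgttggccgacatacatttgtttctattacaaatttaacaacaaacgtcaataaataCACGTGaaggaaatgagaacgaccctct

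Glucosinolate genes, which make the sulfur-rich defence compounds of the cabbage family, fell. Of 14 tested 13 fell and none rose, against 21.8% and 36.8% of all genes, with a median of -1.11. CYP79F1, the entry enzyme for compounds from chain-elongated methionine, had 4.67, 6.29 and 2.44 TPM at 27 °C and 21.8, 18.3 and 24.2 TPM at 21 °C and fell by 2.10 ± 0.30. Of the regulators of that aliphatic branch, MYB29 had 3.06, 2.58 and 1.87 TPM at 27 °C and 8.27, 7.19 and 7.25 TPM at 21 °C and fell by 1.30 ± 0.16, and MYB28 fell by 0.72 ± 0.06. The chain-elongation enzyme genes BCAT4 and MAM1 fell by 1.40 ± 0.24 and 0.97 ± 0.19. On the indole branch CYP83B1 fell by 1.01 ± 0.07 and MYB34 by 0.28 ± 0.08, while MYB51 was the single gene not called (0.17 ± 0.16).

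Genes induced by carbon shortage had the highest median of the 30 lists. Of 11 tested 10 rose and none fell, against 36.8% and 21.8% of all genes. Of the 10, 8 rose by at least 1 log2 unit, and the median of the list was 1.61. Besides SEN1 and ASN1, BCAT2, a branched-chain amino acid aminotransferase, had 22.6, 23.3 and 40.8 TPM at 27 °C and 4.25, 4.50 and 5.59 TPM at 21 °C and rose by 2.33 ± 0.18, and DIN10, a raffinose synthase family gene induced in darkness, had 380.1, 418 and 461 TPM at 27 °C and 160.3, 109 and 146 TPM at 21 °C and rose by 1.61 ± 0.14. BGAL4, a beta-galactosidase gene, rose by 1.76 ± 0.11, EXL2 by 1.61 ± 0.09, and 4 genes of trehalose phosphate synthase-like proteins, TPS8, TPS11, TPS9 and TPS10, rose by 0.86 to 1.47. Only DIN2 was not called (0.12 ± 0.29), and it was called higher without the second warm library (adjusted p 0.016 to 0.995 over all settings). The ASN1 window, with its G-box in capitals 167 bases before the start, is chr3:17441432-17441631 on the minus strand of TAIR10.1 (RefSeq).
ASN1: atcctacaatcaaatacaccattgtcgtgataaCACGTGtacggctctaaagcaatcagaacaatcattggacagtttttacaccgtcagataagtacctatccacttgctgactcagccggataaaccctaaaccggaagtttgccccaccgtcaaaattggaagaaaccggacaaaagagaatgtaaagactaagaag
Across the 1026 windows of genes that rose by at least 1 log2 unit the G-box share was 13.1%, against 7.48% of all windows and 7.02% of those of genes that fell by as much. Of the 11 windows of the carbon shortage list only that of ASN1 held it (9.09%), near the share of all windows.

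Starch genes fell for the most part. Of 14 tested 8 fell and 2 rose, against 21.8% and 36.8% of all genes, with a median of -0.26. BAM3, the leaf beta-amylase of nightly starch breakdown, had 80.0, 62.8 and 59.9 TPM at 27 °C and 237, 285 and 258 TPM at 21 °C and fell by 1.94 ± 0.10, though it overlaps another gene. The synthesis genes ADG1, SS1 and APL3 fell by 0.99 ± 0.05, 0.97 ± 0.07 and 1.07 ± 0.17. ADG1 had 176, 176 and 183 TPM at 27 °C and 353, 357 and 352 TPM at 21 °C, with all warm libraries below all cool ones. BAM1 and BAM9 rose by 0.33 ± 0.07 and 0.23 ± 0.09, and the call of BAM9 was lost with both other scalings and without the first or second cool or the second or the third warm library (adjusted p 0.0096 to 0.386 over all settings).

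Heat shock and chaperone genes moved both ways after 12 h, each by less than 2 log2 units. Of 33 tested 17 rose and 6 fell, against 36.8% and 21.8% of all genes, with a median of 0.47. HSP90.1 had 16.2, 15.1 and 16.6 TPM at 27 °C and 4.58, 2.44 and 4.02 TPM at 21 °C, a change of 1.89 ± 0.15 (limma adjusted p = 8.33e-08). The gene listed as HSP70, a stress-induced chaperone, had 36.6, 33.8 and 33.3 TPM at 27 °C and 11.9, 8.48 and 10.4 TPM at 21 °C, a change of 1.67 ± 0.15 (limma adjusted p = 2.28e-07). MBF1C, a co-activator of thermotolerance, had 27.1, 28.1 and 26.5 TPM at 27 °C and 7.53, 7.49 and 7.59 TPM at 21 °C, a change of 1.72 ± 0.09 (limma adjusted p = 8.63e-10). The groups of these genes did not overlap.

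Among the heat shock factors HSFA3 rose by 1.55 ± 0.11, although it overlaps another gene, and HSFA2 had 0.832, 1.14 and 0.852 TPM at 27 °C and 0.149, 0.312 and 0.258 TPM at 21 °C and rose by 0.64 ± 0.17. The small heat shock protein genes HSP17.4, HSP17.6A, HSP18.2, AT1G07400, AT1G53540 and AT2G29500 were not called, with wide spread between libraries. HSP17.4 had 4.81, 1.57 and 2.14 TPM at 27 °C and 1.44, 0 and 1.64 TPM at 21 °C, and its groups overlapped (0.95 ± 0.42, limma adjusted p = 0.066), but it was called higher without the third cool or the second warm library (adjusted p 0.0408 to 0.315 over all settings). The falling members were the abundant constitutive chaperone HSP70-1, with 1666, 1672 and 1559 TPM at 27 °C and 2699.8, 2534 and 2423 TPM at 21 °C and a change of -0.64 ± 0.06, the organelle chaperones CLPB3 (-0.77 ± 0.08) and HSP60 (-0.48 ± 0.08), and ROF1, AT5G37670 and FES1A at -0.61 to -0.28. A pair of inverted heat shock element units, GAANNTTC on either strand, lay before 6 of the 33 genes (18.2%), against 9.17% of all windows. The pair was not particular to this list. Across the other lists its share ranged from 0.0% (brassinosteroid genes) to 31.2% (salicylic acid immunity genes), with 26.3% in the INO80, SWR1 and H2A.Z list. The HSP17.4 window holds 2 pairs, 99 and 18 bases before the start, and is shown because the gene has these pairs and was not called at 12 h, from chr3:16984868-16984987 on the minus strand of TAIR10.1 (RefSeq), with the pairs in capitals.
HSP17.4: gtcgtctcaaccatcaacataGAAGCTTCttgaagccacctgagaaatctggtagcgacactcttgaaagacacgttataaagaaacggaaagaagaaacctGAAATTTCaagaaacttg

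Folding genes of the endoplasmic reticulum fell. Of 13 tested 10 fell and 1 rose, against 21.8% and 36.8% of all genes, with a median of -0.39. BIP1, a chaperone gene, had 78.7, 90.4 and 74.9 TPM at 27 °C and 168, 158 and 175 TPM at 21 °C and fell by 1.03 ± 0.12, and its close copy BIP2 fell by 0.96 ± 0.16. BIP3, the stress-induced copy, had 0.428, 0.535 and 0.749 TPM at 27 °C and 3.52, 3.47 and 3.66 TPM at 21 °C and fell by 1.54 ± 0.18. The calnexin gene CNX1 fell by 0.76 ± 0.12 and the calreticulin gene CRT1A by 0.63 ± 0.12. BZIP28, a membrane-bound activator of these genes, was the one that rose, by 0.76 ± 0.07.

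Of 12 abscisic acid genes 7 rose and none fell, against 36.8% and 21.8% of all genes, and their median was 0.51. ABF3, a transcription factor of the hormone response, had 77.8, 75.5 and 100.4 TPM at 27 °C and 22.9, 25.8 and 26.0 TPM at 21 °C and rose by 1.71 ± 0.10 (limma adjusted p = 3.78e-09). RAB18, a dehydrin gene used as a response marker, had 244, 223 and 234 TPM at 27 °C and 80.9, 84.5 and 78.1 TPM at 21 °C and rose by 1.51 ± 0.28, and NCED3, a synthesis enzyme, rose by 1.02 ± 0.21. ABI1 and HAB1, phosphatases that restrain the pathway, rose by 0.62 ± 0.07 and 0.76 ± 0.09. Of 15 ethylene genes 10 rose and 1 fell, against the same shares, with a median of 0.51. The receptor genes ERS2, ETR2, ERS1 and ETR1 rose by 0.51 to 1.03, while the receptor gene EIN4 was the one that fell, by 0.19 ± 0.07, a call lost without any single Col library other than the third at 21 °C (adjusted p 0.000739 to 0.134 over all settings). The transcription factor gene EIN3 had 161, 165 and 192 TPM at 27 °C and 106, 99.6 and 106 TPM at 21 °C and rose by 0.73 ± 0.07, and EBF2, whose product removes EIN3, rose by 0.82 ± 0.07.

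Of 11 jasmonate genes 4 fell and 1 rose, against 21.8% and 36.8% of all genes, with a median of -0.34. The 4 that fell are synthesis enzymes. LOX2, the first step, had 33.8, 40.8 and 20.9 TPM at 27 °C and 107, 115 and 112 TPM at 21 °C, a change of -1.82 ± 0.16 (limma adjusted p = 2.48e-07). AOC2 fell by 1.56 ± 0.09, AOC1 by 0.99 ± 0.16 and AOS by 0.69 ± 0.10. JAR1, which makes the active conjugate, rose by 0.24 ± 0.06, a call lost with median-of-ratios scaling and with quantile normalization (adjusted p 0.00257 to 0.166 over all settings). With median-of-ratios scaling 7 members fell and none rose.

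Salicylic acid immunity genes showed 3 rises and 4 falls among 16 tested, against 36.8% and 21.8% of all genes, with a median of -0.0035. PR5, a defence protein gene, had 3.50, 2.26 and 1.73 TPM at 27 °C and 9.64, 16.3 and 13.3 TPM at 21 °C and fell by 2.01 ± 0.19, and SNC1, an immune receptor gene, fell by 0.32 ± 0.09. WRKY18 fell by 0.71 ± 0.14, whereas WRKY33, WRKY40 and WRKY70 rose by 0.83 ± 0.21, 0.92 ± 0.30 and 0.71 ± 0.20. The call of WRKY40 was lost without the first or second library at 21 °C or the third at 27 °C (adjusted p 0.00146 to 0.0613 over all settings). PR1 was near 2 TPM in both groups, with 2.13, 1.43 and 2.60 TPM at 27 °C and 1.55, 2.003 and 2.36 TPM at 21 °C, and was not called (0.03 ± 0.73, limma adjusted p = 0.976).

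Nitrate and sulfate assimilation genes each moved both ways. Of 7 nitrate genes 2 rose and 3 fell, against 36.8% and 21.8% of all genes, with a median of -0.08. The nitrate reductase genes NIA1 and NIA2 were the 2 that rose, by 0.70 ± 0.15 and 0.43 ± 0.10. NIA1 had 701, 657 and 1099 TPM at 27 °C and 507, 453 and 513 TPM at 21 °C, and the highest warm library, the third, stood above the other two. Of 12 sulfate genes 4 rose and 4 fell, against the same shares of all genes, with a median of -0.02. APR1, APR2 and APR3, which reduce activated sulfate, fell by 1.47 ± 0.18, 1.16 ± 0.08 and 0.86 ± 0.09, and LSU2, one of a family of sulfur-deficiency genes with similar copies, fell by 1.10 ± 0.29, while its relatives LSU1 and LSU3 rose by 1.40 ± 0.23 and 0.98 ± 0.22.

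Cell cycle genes fell. Of 17 tested 15 fell and 1 rose, against 21.8% and 36.8% of all genes, with a median of -0.66. PCNA1, the sliding clamp of DNA replication, had 12.6, 14.6 and 7.56 TPM at 27 °C and 28.3, 28.4 and 34.0 TPM at 21 °C and fell by 1.35 ± 0.17. TSO2, a ribonucleotide reductase subunit gene, had 61.6, 57.1 and 55.1 TPM at 27 °C and 126, 122 and 122 TPM at 21 °C and fell by 1.08 ± 0.08 (limma adjusted p = 3.54e-08). The helicase genes MCM2 to MCM7 fell, with changes between -0.95 for MCM6 and -0.60 for MCM3, and the mitotic cyclin gene CYCB1;1 fell by 0.78 ± 0.13. CYCD3;1, which promotes entry into the cycle, was the gene that rose, with 44.8, 50.6 and 49.3 TPM at 27 °C and 33.8, 31.1 and 35.2 TPM at 21 °C and a change of 0.52 ± 0.07. In whole seedlings, fewer cells of a type and less RNA per cell cannot be told apart.

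Chromatin genes around INO80 moved in both directions. The list holds 19 genes, for INO80 and SWR1 complex subunits, the histone variant H2A.Z, which SWR1 deposits, and the NRP histone chaperones. Of these 6 rose and 7 fell, against 36.8% and 21.8% of all genes, with a median of -0.07. After INO80, the largest rise was that of HTA9, an H2A.Z gene, with 369, 328 and 384 TPM at 27 °C and 192, 189.7 and 199.6 TPM at 21 °C and a change of 0.89 ± 0.06 (limma adjusted p = 1.44e-08). The H2A.Z genes HTA8 and HTA11 fell by 0.49 ± 0.10 and 0.45 ± 0.07, and HTA4, the fourth, was not called (-0.39 ± 0.22, limma adjusted p = 0.148). HTA9 had the highest TPM of the 4 at both temperatures. SEF, a SWR1 subunit, and ARP4, an actin-related subunit of both complexes, rose by 0.72 ± 0.13 and 0.66 ± 0.09. Among the 7 falls were those of the histone chaperone genes NRP1 and NRP2, which fell by 0.81 ± 0.09 and 0.89 ± 0.09.

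Of 17 flowering-time genes 7 rose and 4 fell, near the 36.8% and 21.8% of all genes. Their median was 0.11, and with median-of-ratios scaling 5 rose and 6 fell. SPL3, a promoter of the phase change that precedes flowering, had 23.4, 24.0 and 27.6 TPM at 27 °C and 3.92, 4.74 and 3.35 TPM at 21 °C and rose by 2.38 ± 0.16, but overlaps another gene. SVP, a repressor whose protein is unstable in warmth, had 47.9, 44.9 and 50.2 TPM at 27 °C and 19.1, 20.3 and 20.9 TPM at 21 °C and rose by 1.20 ± 0.07 (limma adjusted p = 4.37e-09). TEM1 and TEM2, repressors of FT, rose by 0.66 ± 0.07 and 0.73 ± 0.06. SOC1, an integrator that promotes flowering, fell by 0.81 ± 0.20 with 0.965, 1.72 and 2.21 TPM at 27 °C and 3.18, 3.46 and 3.96 TPM at 21 °C. FLC, the vernalization repressor, was not called (0.21 ± 0.11, limma adjusted p = 0.102) except without the first warm library (adjusted p 0.0298 to 0.476 over all settings), and FT, the mobile flowering signal, was not analysed here.

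Markers of tissues that whole seedlings may hold in different amounts were read alongside. Of 12 root markers 2 rose and 2 fell, against 36.8% and 21.8% of all genes. Their summed level was 1963 to 2808 TPM at 27 °C and 1975 to 2265 TPM at 21 °C, with overlap. GL2 and CASP1 rose by 1.00 ± 0.12 and 0.76 ± 0.19, while IRT1, the iron uptake transporter gene, had 15.2, 19.8 and 7.67 TPM at 27 °C and 68.2, 38.2 and 50.1 TPM at 21 °C and fell by 1.85 ± 0.34. Of 10 seed maturation markers 4 rose, a share near the 36.8% of all genes, and none fell, with a summed level of 71.1 to 91.4 TPM at 27 °C and 25.4 to 36.5 TPM at 21 °C. The 4 are OLEO2 (1.56 ± 0.14), EM6 (1.20 ± 0.19), EM1 (1.19 ± 0.25) and OLEO1 (0.77 ± 0.22), genes that abscisic acid also induces. The part of seed markers in the change of the abscisic acid list was not tested. The 5 floral markers summed to 0.259 to 1.23 TPM at 27 °C and 0.248 to 0.772 TPM at 21 °C, and only PI passed the filter.

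Few genes differed detectably between Col and ino80 in how they responded to 12 h of warmth. The test of the difference between the temperature effect in Col and that in ino80 called 147 genes (0.751%), while 2213 had an unadjusted p under 0.05. Of the 147, 123 also changed in Col. Among these, 58 rose in Col with a more positive change than in ino80, 42 fell with a more negative one, 11 rose with a less positive one and 12 fell with a less negative one. The Col change enters both the call in Col and the difference, so this split alone cannot show which genotype responded more. The count of 147 rests on single libraries. It was 69, 71 and 54 without replicates 1, 2 and 3 of Col at 21 °C, 75 and 80 without the first and second ino80 libraries at 21 °C, and 80 and 83 without the first and second ino80 libraries at 27 °C. Over the same removals and that of the third ino80 library at 27 °C, the number also changed in Col was 58, 57, 45, 62, 70, 69, 66 and 80.

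The genes with a difference included 4 of the 12 sulfate genes, 3 of the 11 jasmonate genes and 3 of the 7 nitrate genes, against 0.751% of all genes. Among them the calls of LSU3, AOS and NIA1 were lost in some settings, 16 for LSU3 and 10 for AOS. APR1 fell by 1.47 ± 0.18 in Col and had a change of 0.32 ± 0.18 in ino80, where it had 51.2, 79.3 and 51.9 TPM at 27 °C and 41.9, 45.7 and 55.8 TPM at 21 °C, and the difference of the changes was -1.79 ± 0.26 (limma adjusted p = 0.00903). LOX2 fell by 1.82 ± 0.16 in Col and had a change of -0.08 ± 0.16 in ino80, where it had 55.9, 49.1 and 52.0 TPM at 27 °C and 52.4, 61.1 and 52.9 TPM at 21 °C, a difference of -1.74 ± 0.23 (limma adjusted p = 0.00579). In both genes the ino80 libraries at 27 °C and 21 °C overlapped, while the Col libraries did not. EMB3114, annotated as an organelle transcription termination factor, had 151, 153 and 174 TPM at 27 °C and 104, 97.8 and 106 TPM at 21 °C in Col and 32.8, 28.6 and 27.4 TPM at 27 °C and 38.3, 36.8 and 43.5 TPM at 21 °C in ino80, with a rise of 0.63 ± 0.08 in Col, a change of -0.41 ± 0.08 in ino80 and a difference of 1.03 ± 0.12 (limma adjusted p = 0.00359). NIA2 rose in Col and had a change of -0.43 ± 0.10 in ino80, a difference of 0.86 ± 0.14 (limma adjusted p = 0.0119). AT1G47980, a desiccation-like protein gene, had 25.8, 22.1 and 22.7 TPM at 27 °C and 3.996, 5.55 and 5.34 TPM at 21 °C in Col and 6.07, 5.73 and 4.72 TPM at 27 °C and 3.06, 4.80 and 3.41 TPM at 21 °C in ino80, a difference of 1.58 ± 0.21 (limma adjusted p = 0.00579).

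PIF4 and several other genes with large changes in Col did not pass that test. The differences were 0.52 ± 0.20 (limma adjusted p = 0.32) for PIF4, 1.17 ± 0.26 (limma adjusted p = 0.0575) for YUC9, 0.45 ± 0.15 (limma adjusted p = 0.227) for LUX, -0.16 ± 0.21 (limma adjusted p = 0.858) for HSP90.1, -0.12 ± 0.37 (limma adjusted p = 0.954) for COR15A and 0.71 ± 0.22 (limma adjusted p = 0.176) for SEN1. PRE1 had a change of 1.55 ± 0.23 in Col and 0.44 ± 0.23 in ino80, and its difference of 1.11 ± 0.32 (limma adjusted p = 0.141) was likewise not called. These misses do not show that the responses were alike. No member of the clock list, of the PIF list or of the sugar starvation list was called in the test of the difference.

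**Figure D4:**
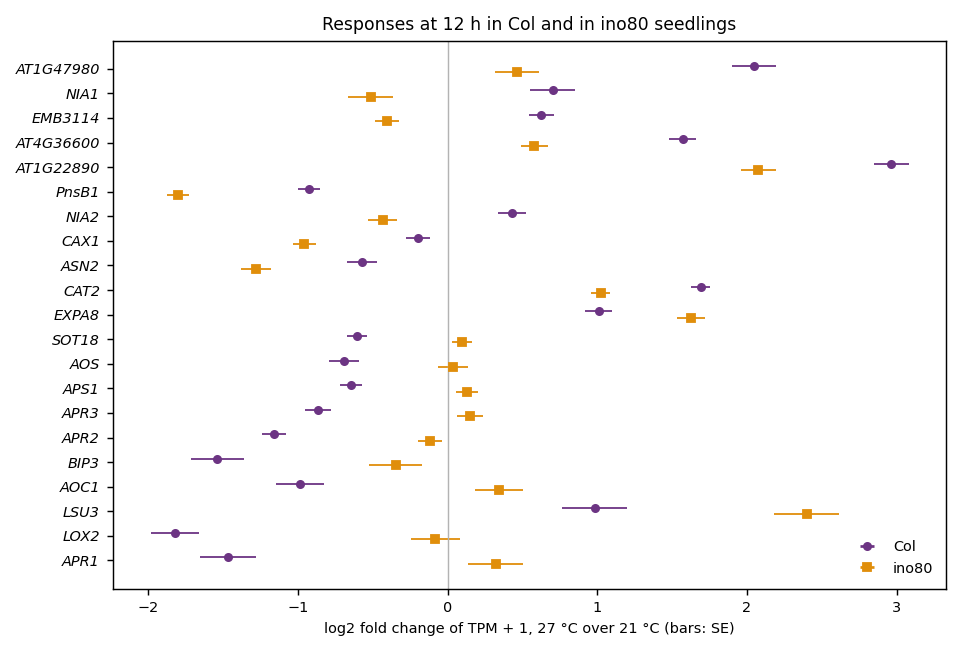
Log2 fold change of TPM + 1 at 27 °C over 21 °C after 12 h in Col (circles) and in ino80 (squares), with standard errors, for the 21 named genes called in the test of the difference. APR1, APR2, APR3, APS1, LOX2, AOC1 and SOT18 lie below 0 in Col and near 0 in ino80, and NIA1, NIA2 and EMB3114 lie on opposite sides of 0.

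After 1 h the same genotype had been measured in a table of its own, so values are set side by side without a test between times. At 1 h 6570 of 19190 genes were called (34.2%), 3013 higher (15.7%) and 3557 lower (18.5%). Of the genes that rose at 12 h, 15.5% had risen and 19.0% had fallen at 1 h, and of those that fell at 12 h, 19.6% had risen and 18.8% had fallen. In the other direction, of the genes higher at 1 h 36.9% rose and 27.8% fell at 12 h, and of those lower at 1 h 38.4% rose and 22.6% fell. Over all genes tested at 12 h 36.8% rose and 21.8% fell, so apart from the 27.8% these shares were near those of all genes. Without the second Col library at 21 °C of the 1 h table the split at that time turned to 3356 higher and 2996 lower.

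Several groups had medians of opposite sign at 1 h and 12 h, while others kept their sign. The heat shock list had a median of 1.16 at 1 h and 0.47 at 12 h. HSP90.1 changed by 3.30 ± 0.08 at 1 h and 1.89 ± 0.15 at 12 h, and HSP17.4 by 3.24 ± 0.13 and 0.95 ± 0.42. Clock genes had a median of -0.56 at 1 h and 0.74 at 12 h, with RVE4 at -0.68 ± 0.05 and 1.03 ± 0.06. ASN1 changed by -2.10 ± 0.11 at 1 h and 4.44 ± 0.19 at 12 h, and DIN10 by -1.28 ± 0.06 and 1.61 ± 0.14. The ER folding list had a median of 0.58 at 1 h and -0.39 at 12 h, with BIP2 at 0.84 ± 0.08 and -0.96 ± 0.16.

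Of the 25 flavonoid genes 11 were called higher and 9 lower at 1 h, with a median of 0.07, against 1 higher and 22 lower at 12 h. Single genes of opposite sign at the times were DFR at 1.42 ± 0.07 at 1 h and -4.13 ± 0.29 at 12 h and LDOX at 1.48 ± 0.07 and -4.19 ± 0.27. COR15A changed by 0.87 ± 0.14 at 1 h and -5.28 ± 0.26 at 12 h. GA3OX1 changed by 1.83 ± 0.11 and -2.09 ± 0.16, LOX2 by 1.77 ± 0.06 and -1.82 ± 0.16, and GASA6 by -2.30 ± 0.10 and 1.10 ± 0.09. XTH24 changed by -1.53 ± 0.06 and 2.34 ± 0.09. Genes with the same sign at both times included PIF4, at 0.79 ± 0.10 and 2.79 ± 0.14, PIF5, at 0.66 ± 0.06 and 1.58 ± 0.10, MBF1C, at 2.54 ± 0.10 and 1.72 ± 0.09, and APR1, at -2.76 ± 0.08 and -1.47 ± 0.18. The antenna genes CAB2 and CAB3 had 1 h changes of -0.01 ± 0.09 and 0.08 ± 0.06, against -4.77 ± 0.18 and -1.81 ± 0.10 at 12 h.

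**Figure D5:**
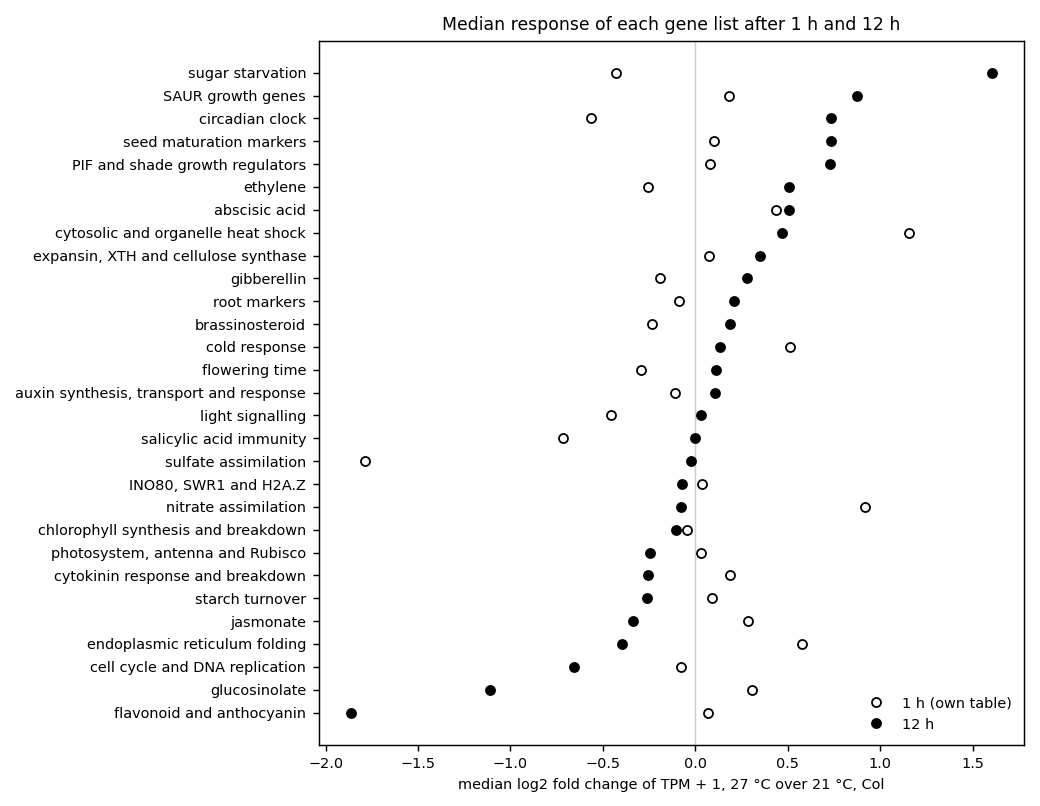
Median log2 fold change of TPM + 1 at 27 °C over 21 °C in Col for each gene list after 1 h (open circles) and after 12 h (filled circles), from 2 tables fitted separately. Sugar starvation and clock lists lie below 0 at 1 h and above 0 at 12 h, the heat shock list is above 0 at both times, and the endoplasmic reticulum and glucosinolate lists lie above 0 at 1 h and below 0 at 12 h.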

How the data were processed

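RNA of whole seedlings was prepared with Takara's Minibest kit for plants and turned into libraries with NEBNext Ultra, per the labels' protocols. The authors deposited TPM, with a separate table per time and no counts, so counting precision is unknown. With RefSeq's exon lengths, 35.8% to 37.4% of the low values of the Col libraries lay within 0.1 of whole multiples of the estimated value of 1 fragment, so fragment counts were not recovered and the depth estimates behind them were not used. Tools named in the submitters' processing notes, with no role, were HISAT2 2.1.10, fastp 0.20.1, DESeq2 1.26.0 and HTSeq 0.11.2. The build named there is TAIR10. Strand use, poly(A) selection and gene lengths are not given in the sources used here.

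The 19578 genes with 1 TPM or more in 3 or more of the 12 libraries at 12 h were fitted on log2(TPM + 1) of the deposited values with limma 3.58.1 in R 4.3.3. The fit had 4 group means and a mean-variance trend, so both genotypes share 1 estimate of the spread. The added 1 draws fold changes of low genes toward 0. Tests were two-sided, and p-values were Benjamini-Hochberg adjusted over all tested genes and called under 0.05. The difference between genotypes is the Col change minus the ino80 change. The 1 h table was fitted alone in the same way. In simulated data on these genes the Col comparison called 49% of 200 genes changed by 0.5 log2 units, with 5 false calls. It called 93% of 200 genes changed by 1 log2 unit, with 4 false calls. Only 200 genes were changed there, whereas 11475 were called in the real comparison, so these rates need not hold for it.

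The comparison, the 30 gene lists (546 entries) and the rule for named genes were chosen with earlier results of these data known. The rule takes the 12 largest rises and the 12 largest falls among called genes without overlap between temperatures and with a mean of at least 5 TPM in the higher group. It adds up to 6 members per list by test statistic, each list's lowest and highest member, 6 genes per direction of the difference between genotypes, and a fixed set of warmth, clock and cold genes. Genes named outside it, chosen after their values were seen, were AT1G07400, AT1G53540, AT2G29500, AT5G37670, BAM9, BCAT2, BCAT4, C4H, CAB1, CDF2, CESA1, CESA3, CESA6, CYCB1;1, DIN10, EIN4, ELF3, ERD10, ETR2, EXPA10, F3H, FES1A, FKF1, GID1B, GRP8, HFR1, HSP17.4, HSP17.6A, HSP18.2, HSP60, HTA4, KIN1, KIN2, LHB1B1, LHB1B2, LHCA1, LHCA2, LHCA3, LHCA4, LHCA5, LHCA6, LHCB2.1, LSU2, LTI30, MAM1, MCM2, MCM3, MCM4, MCM5, MYB111, MYB12, MYB34, NYC1, NYE1, PAL1, PAL2, PAO, PAP1, PHYB, PIF1, PR1, PRE1, RBCS1A, RBCS2B, RBCS3B, RD29A, ROF1, SAUR9, SEF, SGR2, TCH4, TPS10, TPS9, TT8, TTG1, XTH17, XTH18, XTH19, XTH33 and XTH4, and the genes named under the product-name groups.

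Symbols, starts and windows come from RefSeq's TAIR10.1, in which 23135 of the 23282 genes were found, and the 147 others were organelle genes. Because strand use is not stated, values of genes that overlap another annotated gene by 200 bp or more are uncertain. Among genes named with values these were APR2, AT1G33055, BAM3, BCAT4, BES1, BGAL4, BIN2, BOA, BZR1, COR15B, EBF2, F3H, FLC, GASA6, HGO, HSFA3, HSP17.4, HTA4, LHB1B2, LNG2, LNK2, LUX, MCM7, PIF1, PIF7, PnsB1, SPL3, TPX2, WRKY33 and XTH15. Alternatives covered the pseudocount, the filter, the scaling, the libraries in the fit, the moderation, a replicate block and leaving out each library.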

Additional observations from a re-analysis of the deposited data

Results flagged for a closer look

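For 21 named genes the temperature effect in Col differed from that in ino80 by the test of the difference itself, over all 19578 genes, with n = 3 libraries per group (limma adjusted p 0.00359 to 0.0492). Of the 21, 14 kept the call in every setting that tested them. The naming rule takes genes with the largest statistics of this same test, so that share does not stand for all called genes. Over all 147 called genes 39 kept the call. Each difference is the Col change minus the ino80 change on the log2 scale.

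Sulfate assimilation genes fell in Col and changed less in ino80, with differences of -1.79 for APR1, -1.04 for APR2, -1.01 for APR3 and -0.78 for APS1, which makes the activated sulfate that the APR enzymes reduce. LSU3, a sulfur-deficiency gene, changed by 0.98 in Col and 2.40 in ino80, a difference of -1.42.

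Jasmonate synthesis genes also fell in Col and stayed nearer to 0 or above it in ino80, with differences of -1.74 for LOX2, -1.33 for AOC1 and -0.73 for AOS. The same direction was seen in SOT18, a sulfotransferase of glucosinolate synthesis (-0.70), and in the chaperone gene BIP3 (-1.19), while the expansin gene EXPA8 changed by 1.01 in Col and 1.63 in ino80 (-0.62).

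The nitrate reductase genes were higher in the warm in Col and lower in ino80, with differences of 1.215 for NIA1 and 0.86 for NIA2. EMB3114 did the same, at 1.03. Larger rises in Col than in ino80 were measured for AT1G47980, annotated as desiccation-like (1.58), the LEA protein gene AT4G36600 (0.99), AT1G22890 (0.89) and the amino acid transporter gene CAT2 (0.67).

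Larger falls in ino80 than in Col were measured for the asparagine synthetase gene ASN2 (0.71), the vacuolar cation exchanger gene CAX1 (0.76) and PnsB1, a subunit gene of the chloroplast NDH complex (0.87). PnsB1 had 10.3, 8.79 and 9.25 TPM at 27 °C and 35.8, 36.4 and 34.0 TPM at 21 °C in ino80, all far below its Col libraries.

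The 7 genes whose call was lost in at least 1 setting were BIP3, EXPA8, AOS, ASN2, NIA1, LSU3 and AT1G22890. For some of them many settings lost it: 16 for LSU3, 14 for EXPA8, 11 for BIP3 and 10 each for AOS and ASN2.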

How the results depend on the processing

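The split between higher and lower genes in Col depended on the scaling, with 7201 higher and 4274 lower as deposited (62.8% higher), 5616 and 5550 after median-of-ratios scaling (50.3%), and 5535 and 5583 after quantile normalization (49.8%). Of the 224 genes that the naming rule takes and the fit tested, 204 were called, 194 of these kept the call in every one of the 16 settings that tested them, and none reversed. A mean of at least 5 TPM left 196 of the 224 to test. Genes changed by at least 1 log2 unit numbered 1572, 877 with a pseudocount of 5, which draws low genes toward 0, and 2164 with a pseudocount of 0.1. Leaving out each Col library in turn gave 10337 to 11051 genes called, 6292 to 7167 higher, 3738 to 4112 lower and 1516 to 1719 changed by at least 1 log2 unit.

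The test of the difference between genotypes called 147 genes, 123 of them also called in Col. Without single libraries these counts ranged over 54 to 127 and 45 to 108, and 39 of the 147 genes kept the call in every setting that tested them. With the replicate number as a block the counts were 93 and 77, and without a filter on low TPM the second count was 81. The cause was not tested. The replicate numbers share only a number: deviations of same-numbered Col libraries at 27 °C and 21 °C correlated across genes at 0.0457, -0.289 and 0.0416. With that block the Col comparison called 7123 higher and 4184 lower.

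At 1 h the count of 6570 was 5395 to 6352 without single libraries, 6499 with a pseudocount of 0.1 and 6972 with median-of-ratios scaling, settings chosen after seeing the data. TPM keep no read depth, so what depth limits was not stated.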

Other observations

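Many genes of protein synthesis fell in Col after 12 h at 27 °C. The groups here were formed from words in the RefSeq product names after results were seen, and they are counts without a test of the group, to be read against 36.8% of all genes higher, 21.8% lower and a median of 0.13. Members given with values were picked from called genes without overlap between temperatures. Their mean was at least 5 TPM in the higher group. Of 307 tested ribosomal protein genes 223 fell and 33 rose, with a median of -0.47, and with median-of-ratios scaling 238 fell and 23 rose. Of 39 tRNA synthetase genes 26 fell and 6 rose (median -0.38), and of 20 chaperonin genes 18 fell and none rose (median -0.51). CPN60A, a subunit of the chloroplast chaperonin that assists Rubisco assembly, had 361, 366 and 366 TPM at 27 °C and 889, 913 and 956 TPM at 21 °C (log2 change -1.33 ± 0.07). Of 11 isopropylmalate genes, which elongate carbon chains for leucine and for methionine-derived glucosinolates, 9 fell and none rose, with IPMI1 at -2.59 ± 0.21 and IMD1 at -2.35 ± 0.15.

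Aquaporin, autophagy and F-box genes rose more often than they fell. Of 26 genes with intrinsic protein in the product name, which include the plasma membrane and tonoplast aquaporins, 16 rose and 1 fell (median 0.54). TIP2 had 4715, 4968 and 4808 TPM at 27 °C and 1272, 1138 and 1207 TPM at 21 °C. PIP1;5 rose by 1.63 ± 0.10 and PIP2E by 1.31 ± 0.08. Of 17 autophagy genes 14 rose and none fell (median 0.43), with ATG8E, which marks the autophagosome membrane, at 95.5, 95.1 and 97.0 TPM at 27 °C and 47.8, 41.5 and 47.7 TPM at 21 °C. F-box genes, which encode parts of ubiquitin ligases, rose in 92 and fell in 9 of 169 cases (median 0.32), NAC factor genes rose in 28 and fell in 1 of 51 (median 0.36), and WRKY factor genes rose in 24 and fell in 3 of 51 (median 0.37). Of 65 late embryogenesis abundant protein genes, 29 rose and 4 fell (median 0.40). Also formed were a pentatricopeptide group, in which 71 of 235 fell and 22 rose (median -0.19), and a ubiquitin group. In the ubiquitin group 113 of 225 rose and 26 fell (median 0.27).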
